A study of Homo sapiens with 6 samples.

Results

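The genes described here are the proteases and protease inhibitors of a human lung cancer expression table, taken by name. Every protein-coding gene entered whose symbol belongs to the SERPIN, SPINT, SPINK, TIMP, CST, WFDC, KLK, MMP, ADAM, TMPRSS, PRSS, CTS, CAPN or PLAU series, with ST14 added. Of the 6641 genes listed, 87 met this rule. Of these, 52 belong to enzyme families, 29 to inhibitor families and 6 to neither class. The 6 are PLAUR, a receptor, CAPNS1, a regulatory subunit, MMP24OS, a gene on the strand opposite MMP24, and ADAMTSL3, ADAMTSL4 and ADAMTSL5, which resemble ADAMTS enzymes but lack their catalytic domain.

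RNA was sequenced from 2 lines of human non-small cell lung cancer cells, HCC827 and HCC827_Er, with 3 libraries per line. The former is a long-used lung adenocarcinoma culture that carries an activating EGFR mutation. HCC827_Er is taken as the resistant line of a series on resistance to EGFR kinase inhibitors, and HCC827 as the parental one. No agent, dose, culture time or clone is given for either line, so drug exposure at harvest is not known here. Whether the 3 libraries stem from different cultures is not stated either, and p-values then measure only the spread between these samples.

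Proteolysis outside and inside the cell is run by a few enzyme classes, each held in check by dedicated inhibitors. Serine proteases of the TMPRSS, PRSS and KLK families and matriptase (ST14) act at the surface of epithelia and in their secretions, and are blocked by the Kunitz inhibitors SPINT1 and SPINT2 and by many serpins. Urokinase (PLAU), bound to its receptor PLAUR, turns plasminogen into plasmin and is inhibited by serpins. Metalloproteases of the MMP, ADAM and ADAMTS families cut matrix and cell surface proteins and are inhibited by TIMPs, whereas cathepsins work mainly in lysosomes and the cysteine cathepsins are inhibited by cystatins.

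Values are FPKM, which divide read fragments by the length of the transcript and the number mapped in a library, so levels may be compared between genes but the depth behind them is unknown. Library sums over the table ranged from 184633 to 224211 FPKM. A gene was tested with limma on log2(FPKM + 1) when at least 3 of the 6 libraries reached 1 FPKM. It was called when its Benjamini-Hochberg adjusted p was under 0.05 and its log2 difference at least 1 in size, which is 2-fold on that scale. Among all 5276 genes tested 44.4% were called, 24.7% as higher and 19.7% as lower in HCC827_Er, and 96.1% of all listed genes had ranges that did not overlap between the lines. Most listed genes thus differ between the lines, and the counts below are set beside these shares. How genes entered the table is not known, so the shares describe the listed genes and may not hold for all expressed genes. The epithelial markers EPCAM, CDH1, KRT8, KRT19, NKX2-1 and NAPSA were expressed in both lines, with summed levels of 2197 to 2291 FPKM in HCC827 and 2831 to 2923 FPKM in HCC827_Er. In bulk RNA, fewer cells that express a gene and less of its RNA per cell cannot be told apart.

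Of the 66 proteases and inhibitors with a test, 29 rose and 20 fell in HCC827_Er, or 43.9% and 30.3%. Enzymes accounted for 17 of the higher and 9 of the lower calls among 36 tested, or 47.2% and 25%, with a median log2 difference of 0.86. Inhibitors gave 12 higher and 8 lower calls among 24 tested, or 50% and 33.3%, with a median of 0.94. The median over all tested genes was 0.43. After median-ratio rescaling, which moved the median of all genes by -0.30, the enzymes had 15 higher and 12 lower calls and the inhibitors 11 and 9, beside 17.1% and 31.7% of all genes, or 48.8% in either direction. After rescaling to equal library sums, which moved it by 0.21, they had 19 and 7, and 12 and 6, beside 34.6% and 15% of all genes, or 49.6% in either direction. Part of these counts is set by the minimum level, since 19 of the 66 tested genes stayed under 1 FPKM in every library of 1 line. Of the 43 genes with at least 1 FPKM in all 6 libraries, 13 were called higher and 16 lower, beside 753 and 650 of the 3871 such genes in the table. Among the 43, 21 enzymes had 7 higher and 6 lower calls, and 17 inhibitors had 6 higher and 8 lower.

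In several families the calls lay in 1 direction. Serine proteases, which are the TMPRSS, PRSS and KLK families with ST14 and PLAU, gave 11 higher and 0 lower calls among 12 tested. Of the 12, 6 stayed under 1 FPKM in every library of HCC827, the 4 TMPRSS and 2 KLK genes, and entered the test only through HCC827_Er, so their direction was fixed by the minimum level. Of the other 6, 5 were called higher. At an adjusted p under 0.05 with no minimum size, which 98.3% of all genes passed, all 12 differed, and the one not called, PRSS12, was lower. Metalloproteases gave 3 higher and 6 lower calls among 14 tested, with 0 higher and 4 lower among the ADAMTS enzymes. Of the 14, 6 stayed under 1 FPKM in every library of 1 line, so their direction was also fixed by the minimum level. In HCC827 these were MMP9, MMP13 and ADAM28, the 3 called higher, and in HCC827_Er ADAMTS1, ADAMTS6 and ADAMTS15. Of the 8 metalloproteases with at least 1 FPKM in all 6 libraries, 0 were called higher and 4 lower, which are ADAMTS9, ADAMTS10, MMP7 and MMP24. Cathepsins gave 2 and 2 among 7 as deposited, 1 higher and 3 lower after median-ratio rescaling, and 4 and 0 after rescaling to equal sums. On the inhibitor side the serpins gave 5 higher and 8 lower calls among 15 tested, while SPINT, SPINK, CST and WFDC genes together had 7 of 8 called higher. Of the inhibitors called higher, SERPINA4, SERPINB5, CST7 and SPINK2 stayed under 1 FPKM in every HCC827 library. Their direction was thus also fixed by the minimum level. TIMP2, the single TIMP tested, was not called. Beyond the tested genes, all 5 TMPRSS and all 5 KLK genes listed were higher in every HCC827_Er library than in any HCC827 library, and all 8 ADAMTS genes were lower. Over all listed genes 50.7% lay higher in this way and 45.4% lower.

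**Figure D1:**
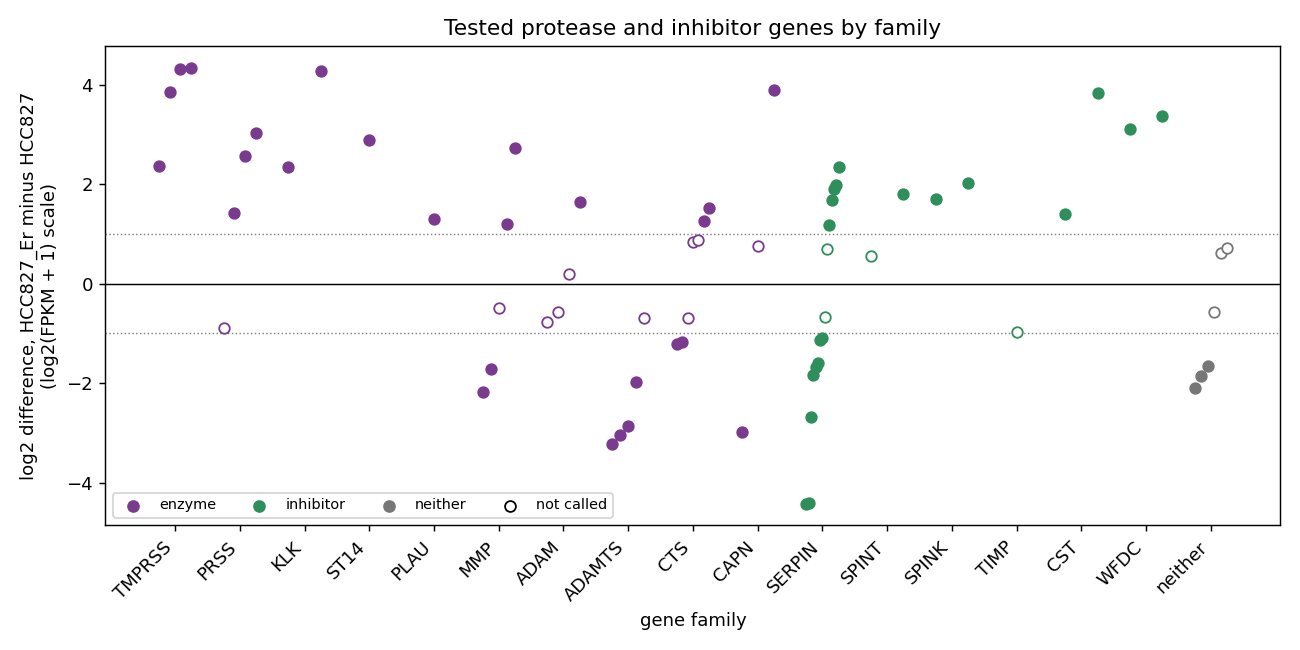
Log2 difference (HCC827_Er minus HCC827, on the log2(FPKM + 1) scale, y axis) of each of the 66 tested genes by family (x axis), with filled points for called genes, open points for genes not called and dotted lines at the 2-fold limit. The 4 TMPRSS genes lie between 2.37 and 4.34, and all 5 ADAMTS genes lie below 0.

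The summed level of the 52 enzymes was 1813, 1742 and 1782 FPKM in HCC827 and 1719, 1663 and 1625 FPKM in HCC827_Er. That of the 29 inhibitors was 864, 826.3 and 826.4 FPKM in HCC827 and 1092, 1056 and 1039 FPKM in HCC827_Er. Proteases and inhibitors that the rule does not take or the table does not list are not in these sums. The enzyme sum was lower in every HCC827_Er library and the inhibitor sum higher. As a share of all listed FPKM, however, the enzymes made up 0.777% to 0.813% in HCC827 and 0.855% to 0.931% in HCC827_Er, so their order depends on the scaling. The ratio of the inhibitor sum to the enzyme sum does not depend on it, and was 0.476, 0.474 and 0.464 in HCC827 and 0.635, 0.635 and 0.639 in HCC827_Er. The makeup of the enzyme sum also differed. CTSD made up 33.1% of the enzyme FPKM of HCC827, followed by CTSA with 13.4% and ADAM9 with 7.65%. In HCC827_Er PLAU led with 19.1%, before CTSD with 15.1% and CTSB with 12%, and ST14 held the fifth place with 7.45%. SPINT2 was the most abundant of the 29 inhibitors in both lines, at 21.4% and 24.6% of their FPKM. Behind it stood SERPINE2 with 14.2% in HCC827 and SERPINA3 with 16.3% in HCC827_Er.

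**Figure D2:**
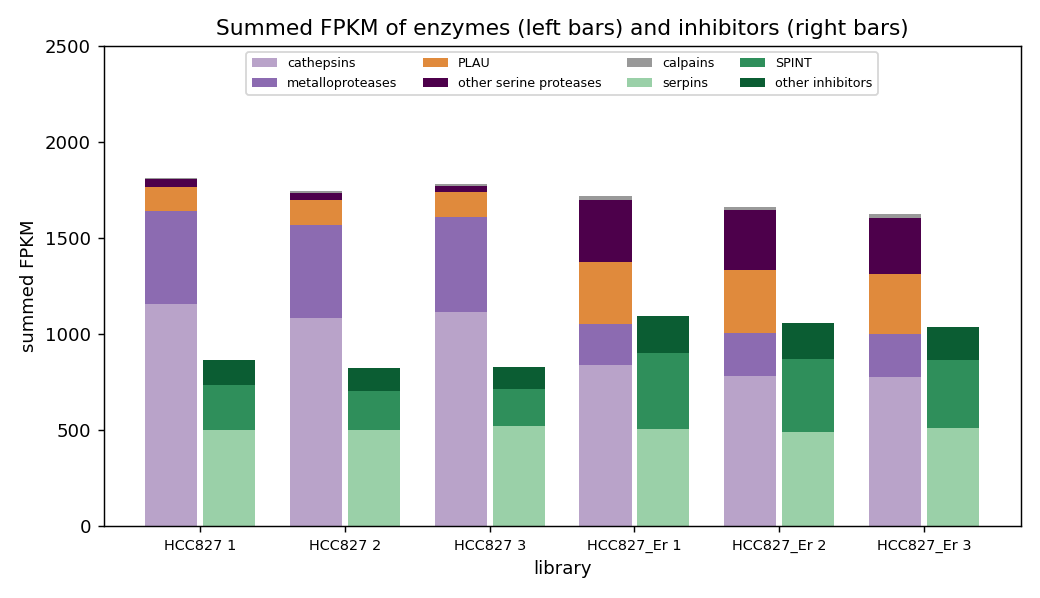
Summed FPKM (y axis) of the 52 enzymes (left bars) and 29 inhibitors (right bars) in each of the 6 libraries (x axis), stacked by class, with CTSA counted among the cathepsins. The part of the serine proteases other than PLAU grew from a mean of 35.9 FPKM in HCC827 to 309 FPKM in HCC827_Er, and that of the metalloproteases was 489 and 224 FPKM.

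Promoter sequences are printed for 6 genes called in either direction, to show where short motifs lie in them. For 57 of the 87 genes the RefSeq promoter table on GRCh38.p14 holds a window, and the 250 bases before the start were searched on both strands. The motifs were the E-box CAGGTG, which factors such as ZEB1 and SNAI1 bind, the AP-1 motif TGANTCA and the Grainyhead-type motif AACCNGTT. No match of 1 motif overlapped a match of another. Called enzymes and inhibitors without a window were not searched. Among those with one, CAGGTG was found in 11 of 17 called higher, or 64.7%, and in 0 of 12 called lower. The 11 were CAPN8, CTSH, KLK6, PLAU, SERPINA1, SERPINA4, SERPINB5, SERPINH1, SPINK1, SPINT1 and WFDC2. Of the called genes in neither class, all lower, ADAMTSL3 has a match and ADAMTSL4 and MMP24OS have none. Among the untested genes, SERPINB13, lower in every HCC827_Er library, has a match, as do ADAM19, KLK7 and KLK11, which were higher. Over all 27305 genes with a window the share was 20.6%. Among all called genes with a window it was 31.2% over the 889 higher and 19.8% over the 698 lower. TGANTCA occurred in 2 of the 17 and 3 of the 12, against 8.06% of all genes, and AACCNGTT in neither set, against 1.85%. These shares were not tested. They are matches of letters at annotated starts, with no measurement of binding, and the starts used in these cells are not known. The windows run 5′ to 3′, with each match to the E-box or the AP-1 motif in capitals. An E-box on the other strand reads CACCTG. The first 5 genes were called higher, and MMP7, called lower, has an AP-1 match and no E-box match. SPINT1 has a second annotated window, which holds no match.
SPINT1 (chr15:40844227-40844476, plus strand): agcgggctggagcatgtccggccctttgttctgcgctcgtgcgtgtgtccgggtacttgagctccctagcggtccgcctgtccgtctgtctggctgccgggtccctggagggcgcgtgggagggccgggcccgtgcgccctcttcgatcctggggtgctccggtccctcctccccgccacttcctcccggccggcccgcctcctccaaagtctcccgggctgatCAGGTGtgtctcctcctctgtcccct
WFDC2 (chr20:45469503-45469752, plus strand): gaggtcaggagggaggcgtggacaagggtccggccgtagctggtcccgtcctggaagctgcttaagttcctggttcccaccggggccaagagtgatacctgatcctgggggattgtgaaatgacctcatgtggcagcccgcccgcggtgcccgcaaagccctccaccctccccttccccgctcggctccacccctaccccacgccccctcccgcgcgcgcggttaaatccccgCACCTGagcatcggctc
SERPINB5 (chr18:63476708-63476957, plus strand): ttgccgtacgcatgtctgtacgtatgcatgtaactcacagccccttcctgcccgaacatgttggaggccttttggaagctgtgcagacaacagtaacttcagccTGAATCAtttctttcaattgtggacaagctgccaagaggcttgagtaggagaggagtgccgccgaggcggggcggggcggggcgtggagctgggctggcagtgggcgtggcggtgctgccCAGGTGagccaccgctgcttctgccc
CAPN8 (chr1:223665702-223665951, minus strand): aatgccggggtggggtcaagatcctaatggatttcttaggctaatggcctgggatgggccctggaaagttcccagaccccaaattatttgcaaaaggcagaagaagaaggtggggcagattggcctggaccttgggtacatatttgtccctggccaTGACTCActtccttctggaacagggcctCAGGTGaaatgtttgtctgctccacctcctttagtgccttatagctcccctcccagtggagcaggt
KLK6 (chr19:50969592-50969841, minus strand): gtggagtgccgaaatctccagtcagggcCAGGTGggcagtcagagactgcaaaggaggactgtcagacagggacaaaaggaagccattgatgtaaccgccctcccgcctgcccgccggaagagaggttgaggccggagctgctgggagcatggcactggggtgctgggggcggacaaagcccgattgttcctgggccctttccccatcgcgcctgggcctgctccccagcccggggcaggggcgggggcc
MMP7 (chr11:102530748-102530997, minus strand): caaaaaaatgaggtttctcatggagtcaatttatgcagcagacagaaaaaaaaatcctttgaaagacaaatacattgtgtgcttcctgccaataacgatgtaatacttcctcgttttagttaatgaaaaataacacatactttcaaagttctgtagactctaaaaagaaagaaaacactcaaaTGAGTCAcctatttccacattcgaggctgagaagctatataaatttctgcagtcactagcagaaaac

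Among the listed genes of the TMPRSS, PRSS and KLK families and ST14, matriptase was the most abundant enzyme of HCC827_Er. ST14 (chr11:130159562-130210376, GRCh38), a membrane protease of epithelial junctions, stood at 16.7, 15.02 and 16.01 FPKM in HCC827 and 135, 123 and 115 FPKM in HCC827_Er. Every HCC827_Er library was above every HCC827 library, by 7.81-fold on the means, with a log2 difference of 2.89 (SE 0.076, adjusted p = 5.44e-09). PRSS8, or prostasin, a lipid-anchored protease that acts together with matriptase, stood at 3.66, 3.11 and 3.51 FPKM in HCC827 and 37.7, 33.8 and 33.98 FPKM in HCC827_Er. The libraries did not overlap, and its log2 difference was 3.03 (SE 0.093, adjusted p = 1.16e-08). PRSS22, a tryptase of airway epithelium, rose from 7.21 ± 2.03 to 46.9 ± 4.54 FPKM (SD, n = 3), with a log2 difference of 2.57. PRSS16, a thymic serine peptidase that is not trypsin-like, rose from 4.51 ± 0.45 to 13.9 ± 2.07 FPKM (SD, n = 3). The exception was PRSS12, or neurotrypsin, at 3.65, 4.64 and 4.28 FPKM in HCC827 and 2.80, 1.46 and 1.29 FPKM in HCC827_Er. Its groups did not overlap, its log2 difference was -0.90 (SE 0.20, adjusted p = 0.001808), and it was called lower after median-ratio rescaling (-1.14) and without HCC827_Er replicate 1 (-1.12).

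The TMPRSS and KLK genes were near 0 in HCC827 and higher in HCC827_Er, where TMPRSS6, KLK10 and KLK11 still stayed under 1 FPKM. TMPRSS4 (chr11:118077012-118121890), a membrane serine protease often high in carcinomas, stood at 0.22, 0.01 and 0.40 FPKM in HCC827 and 21.8, 23.4 and 24.7 FPKM in HCC827_Er, with a log2 difference of 4.34 (SE 0.14, adjusted p = 1.58e-08). TMPRSS13, which lies 148 kb from it, stood at 0.14, 0.05 and 0.03 FPKM in HCC827 and 13.9, 16.1 and 13.5 FPKM in HCC827_Er. Both neighbours were under 1 FPKM in every HCC827 library and above 13 FPKM in every HCC827_Er library. TMPRSS11E (chr4:68447449-68497604) was listed at 0 in all 3 HCC827 libraries and at 16.7, 20.2 and 19.6 FPKM in HCC827_Er. TMPRSS2, an androgen-regulated membrane protease, stood at 0, 0.06 and 0.02 FPKM in HCC827 and 4.31, 4.28 and 4.35 FPKM in HCC827_Er. TMPRSS6, a regulator of hepcidin, was too low to be tested in either line. The summed TMPRSS level was 0.38 to 0.55 FPKM in HCC827 and 57.6 to 64.6 FPKM in HCC827_Er.

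The 5 KLK genes listed, which encode kallikrein-related secreted proteases, share 1 stretch of chromosome 19. KLK6 (chr19:50958631-50969673), whose promoter window is printed above, stood at 0.09, 0.04 and 0 FPKM in HCC827 and 18.9, 20.9 and 17.5 FPKM in HCC827_Er, with a log2 difference of 4.27 (SE 0.11, adjusted p = 5.95e-09). KLK8 was listed at 0 in all HCC827 libraries and at 5.37, 4.01 and 3.07 FPKM in HCC827_Er. KLK6 was the most abundant of them, and both rose. KLK7, which cleaves proteins of the skin barrier, was listed at 0 in HCC827 and at 0.96, 0.71 and 1.78 FPKM in HCC827_Er. KLK10 stood at 0.06, 0.04 and 0.08 FPKM in HCC827 and 0.55, 0.24 and 0.79 FPKM in HCC827_Er, and KLK11 was listed at 0 in HCC827 and at 0.44, 0.13 and 0.56 FPKM in HCC827_Er. The last 3 did not reach the level needed for a test, although none of their HCC827_Er values fell within the HCC827 range. Of the epithelial markers EPCAM, CDH1, KRT19, NKX2-1 and NAPSA rose as well. KRT8, the most abundant of them in HCC827, was lower in every HCC827_Er library, with a log2 difference of -0.77 that was not called as deposited and was called lower after median-ratio rescaling (-1.11). The part of these markers in the rise of the epithelial serine proteases was not tested.

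The Kunitz inhibitors of these proteases changed less than ST14 did. SPINT1 (chr15:40844018-40858207), or HAI-1, the membrane inhibitor of matriptase and prostasin, stood at 34.5, 29.2 and 33.2 FPKM in HCC827 and 126, 112 and 106 FPKM in HCC827_Er, with a log2 difference of 1.79 (SE 0.087, adjusted p = 1.62e-07). SPINT2, or HAI-2, stood at 203, 173 and 161 FPKM in HCC827 and 273, 265 and 247 FPKM in HCC827_Er. The SPINT2 libraries did not overlap, but its log2 difference of 0.55 was below the size needed for a call. Within a library, SPINT1 over ST14 was 2.06, 1.94 and 2.08 in HCC827 and 0.935, 0.911 and 0.917 in HCC827_Er. Thus SPINT1 RNA exceeded ST14 RNA in every HCC827 library and stayed below it in every HCC827_Er library. For SPINT2 over ST14 the ratio was 12.1, 11.5 and 10.1 in HCC827 and 2.03, 2.15 and 2.14 in HCC827_Er. SPINT1 over PRSS8 was 9.39 to 9.47 in HCC827 and 3.11 to 3.34 in HCC827_Er. SPINT1 shares its start with the antisense gene SPINT1-AS1, which was also called higher, and whether the counting used strand is not given in the sources used here.

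Of the small secreted inhibitors 4 were called higher as well. WFDC2, or HE4, a whey-acidic-protein-domain protein of airway and genital epithelia, stood at 2.14, 2.90 and 2.25 FPKM in HCC827 and 32.4, 30 and 23.2 FPKM in HCC827_Er, with a log2 difference of 3.10 (SE 0.14, adjusted p = 1.32e-07). WFDC3 stood at 1.24, 1.51 and 0.64 FPKM in HCC827 and 22.7, 16.1 and 24.3 FPKM in HCC827_Er, and its log2 difference was 3.37. Both were separated by a wide gap between the lines. SPINK1, a trypsin inhibitor also made by tumours, stood at 4.27, 3.86 and 0 FPKM in HCC827 and 6.77, 19.1 and 9.91 FPKM in HCC827_Er. Its libraries varied widely within each line, with 1 HCC827 library at 0, and the log2 difference of 2.02 had the largest error among the called proteases and inhibitors (SE 0.61, adjusted p = 0.01077). It was not called when tested against a log2 difference of 1 (adjusted p = 2.02e-01). SPINK2, an acrosin inhibitor of the testis, stood at 0, 0 and 0.18 FPKM in HCC827 and 1.28, 3.69 and 2.77 FPKM in HCC827_Er. SPINK5, the inhibitor of skin kallikreins, was listed at 0 in HCC827 and at 0.80, 0.75 and 0.93 FPKM in HCC827_Er, too low to be tested.

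**Figure D3:**
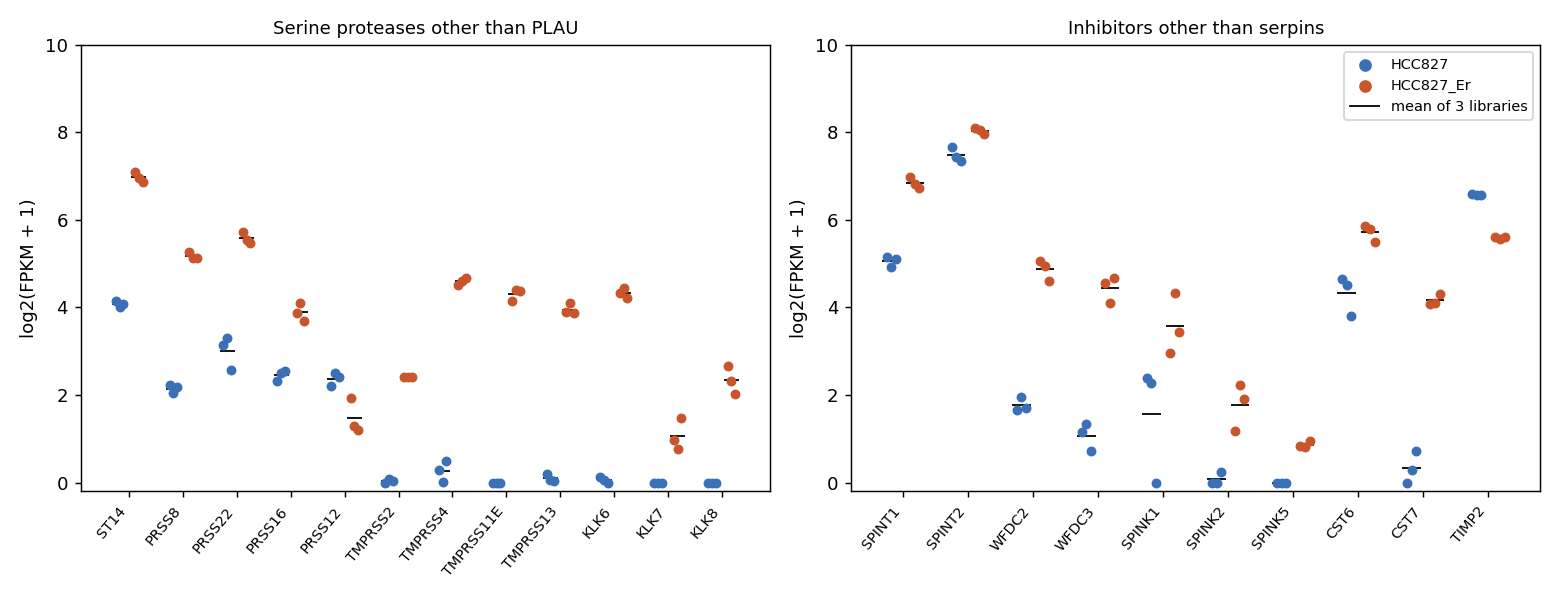
Level on the log2(FPKM + 1) scale (y axis) of 12 serine proteases (left) and 10 inhibitors other than serpins (right) in each library, with points for libraries and a line at the mean of 3. ST14 lies at 15.02 to 16.7 FPKM in HCC827 and 115 to 135 FPKM in HCC827_Er, and TIMP2 is the one inhibitor in the right panel whose HCC827_Er libraries lie below the HCC827 libraries.

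In the plasminogen activator system the enzyme rose and serpins that inhibit it fell. PLAU (chr10:73909177-73917497) stood at 127, 131 and 128 FPKM in HCC827 and 318, 325 and 312 FPKM in HCC827_Er. All HCC827_Er libraries were above all HCC827 libraries, by 2.48-fold on the means, with a log2 difference of 1.30 (SE 0.044, adjusted p = 2.05e-08). After median-ratio rescaling the difference was 0.96 and PLAU was not called. C10orf55, on the opposite strand at the same locus, had means of 0.42 and 1.12 FPKM. SERPINE2 (chr2:223975112-224039319), or protease nexin-1, which inhibits thrombin and urokinase, stood at 115, 117 and 126 FPKM in HCC827 and 4.07, 5.05 and 4.73 FPKM in HCC827_Er. Every HCC827_Er library was below every HCC827 library, and SERPINE2 fell by 4.42 on the log2 scale (SE 0.085, adjusted p = 1.41e-09), with means that differed 25.8-fold.

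The receptor, SERPINB2 and SERPINA5 had smaller log2 differences than SERPINE2. PLAUR, which anchors urokinase to the cell surface, stood at 48.5, 39.5 and 45.5 FPKM in HCC827 and 75.4, 74.3 and 70.99 FPKM in HCC827_Er. The groups were separate, and the difference of 0.72 was not called. SERPINB2, another inhibitor of urokinase, stood at 1.25, 1.28 and 1.07 FPKM in HCC827 and 0.40, 0.29 and 0.47 FPKM in HCC827_Er. Its means differed 3.10-fold, and its log2 difference of -0.67 was not called. With 0.1 instead of 1 added to FPKM before the log, it was called lower at -1.43. SERPINA5, or protein C inhibitor, which also binds urokinase, stood at 15.4, 14.2 and 14.9 FPKM in HCC827 and 6.48, 6.43 and 6.31 FPKM in HCC827_Er. It fell by 1.09 with an adjusted p of 3.00e-06, but was not called after rescaling to equal sums (-0.87) or when tested against a log2 difference of 1 (adjusted p = 4.01e-01). Within a library, PLAU over SERPINE2 was 1.10, 1.11 and 1.02 in HCC827 and 78.2, 64.4 and 65.9 in HCC827_Er. PLAU over PLAUR ranged from 2.61 to 3.31 in HCC827 and from 4.22 to 4.39 in HCC827_Er.

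Matrix metalloproteases split by gene. MMP7 (chr11:102520508-102530753), or matrilysin, a small epithelial MMP, stood at 89.8, 97.3 and 92.7 FPKM in HCC827 and 18.4, 19.8 and 21.8 FPKM in HCC827_Er. It fell by 2.17 on the log2 scale (SE 0.075, adjusted p = 2.21e-08), 4.66-fold on the means. MMP24 (chr20:35226654-35277000), a membrane-bound MMP, stood at 68.7, 62.4 and 65.6 FPKM in HCC827 and 20.02, 19.1 and 18.8 FPKM in HCC827_Er, and its log2 difference was -1.71 (SE 0.065, adjusted p = 3.83e-08). It shares its locus with MMP24OS on the opposite strand, which stood at 23.7, 19.9 and 21.8 FPKM in HCC827 and 5.95, 5.73 and 7.03 FPKM in HCC827_Er and fell likewise, and reads of the pair cannot be told apart without strand. MMP13 (chr11:102942995-102955734), collagenase 3, went the other way, at 0.08, 0.13 and 0.02 FPKM in HCC827 and 5.82, 6.79 and 5.89 FPKM in HCC827_Er, with a log2 difference of 2.73 (SE 0.11, adjusted p = 5.82e-08). MMP9, gelatinase B, stood at 0.35, 0.16 and 0.33 FPKM in HCC827 and 2.26, 1.79 and 1.81 FPKM in HCC827_Er and was called higher at 1.21, but not when tested against a log2 difference of 1 (adjusted p = 1.70e-01). MMP1, interstitial collagenase, stood at 2.02, 1.98 and 2.08 FPKM in HCC827 and 1.16, 1.02 and 1.33 FPKM in HCC827_Er, with a log2 difference of -0.48 that missed the size limit. MMP2, gelatinase A, was listed at 0 in HCC827 and at 0.87, 0.26 and 0.55 FPKM in HCC827_Er, and MMP14 was not analysed here.

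The ADAMTS enzymes, secreted metalloproteases of the extracellular matrix, all stood lower in HCC827_Er. ADAMTS1, which cuts versican and aggrecan, stood at 13.8, 12.8 and 14.1 FPKM in HCC827 and 0.51, 0.57 and 0.61 FPKM in HCC827_Er, with a log2 difference of -3.22 (SE 0.10, adjusted p = 1.66e-08). ADAMTS9, another versicanase, stood at 29.6, 27.6 and 30.6 FPKM in HCC827 and 2.14, 2.46 and 3.46 FPKM in HCC827_Er and had a log2 difference of -3.05. For ADAMTS10, which binds fibrillin, the libraries read 23.9, 22.1 and 21.2 FPKM in HCC827 and 1.75, 3.01 and 1.99 FPKM in HCC827_Er, a log2 difference of -2.87. Each of these was above 12 FPKM in every HCC827 library and below 4 FPKM in every HCC827_Er library. ADAMTS15 stood at 4.24, 3.47 and 3.84 FPKM in HCC827 and 0.21, 0.24 and 0.25 FPKM in HCC827_Er. ADAMTS6 stood at 1.11, 1.22 and 2.63 FPKM in HCC827 and 0.81, 0.70 and 0.32 FPKM in HCC827_Er. Its difference of -0.69 was not called, and it was called lower at -1.28 with 0.1 added to FPKM instead of 1. The family sum was 73.1, 67.4 and 72.9 FPKM in HCC827 and 5.47, 7.08 and 6.63 FPKM in HCC827_Er. ADAMTS15 and ADAMTS8 lie 20 kb apart on chromosome 11, and ADAMTS8 is 195 kb from ST14, which rose. ADAMTS9 overlaps the antisense gene ADAMTS9-AS1, which was called lower too.

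The membrane sheddases ADAM10 and ADAM9 were abundant and were not called. ADAM10, the constitutive sheddase of Notch and E-cadherin, stood at 115, 115 and 120.2 FPKM in HCC827 and 68.5, 69.1 and 66.95 FPKM in HCC827_Er. Its groups were separate, the log2 difference of -0.77 missed the size limit as deposited, and after median-ratio rescaling it was called at -1.11. ADAM9 stood at 132, 136 and 139.9 FPKM in HCC827 and 85.3, 93.3 and 95.7 FPKM in HCC827_Er, a log2 difference of -0.57. ADAM28, a metalloprotease of lymphocytes and lung epithelium, was under 1 FPKM in all HCC827 libraries and at 3.35, 3.50 and 3.53 FPKM in HCC827_Er, with a log2 difference of 1.64. ADAM8 overlapped between the lines, at 1.21, 1.13 and 2.02 FPKM in HCC827 and 1.49, 1.83 and 1.98 FPKM in HCC827_Er, with a difference of 0.19 (adjusted p = 0.263) that turned to -0.02 after median-ratio rescaling. ADAM17 was not analysed here.

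Of the metalloprotease inhibitors, TIMP2 stood at 94.6, 93.1 and 93.96 FPKM in HCC827 and 47.5, 46.6 and 47.5 FPKM in HCC827_Er. Its libraries were far apart and varied by less than 1 FPKM in SD, but the log2 difference of -0.98 missed the size limit, and it was called lower after median-ratio rescaling (-1.32). An antisense gene that overlaps TIMP2 was called higher, so without strand part of its reads cannot be told apart. TIMP2 over MMP7 was 1.05, 0.957 and 1.01 in HCC827 and 2.58, 2.36 and 2.18 in HCC827_Er. TIMP3, the matrix-bound TIMP, was listed at 0 in HCC827 and at 0.48, 0.26 and 0.29 FPKM in HCC827_Er, and lies opposite SYN3, which fell. TIMP1 was not analysed here.

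**Figure D4:**
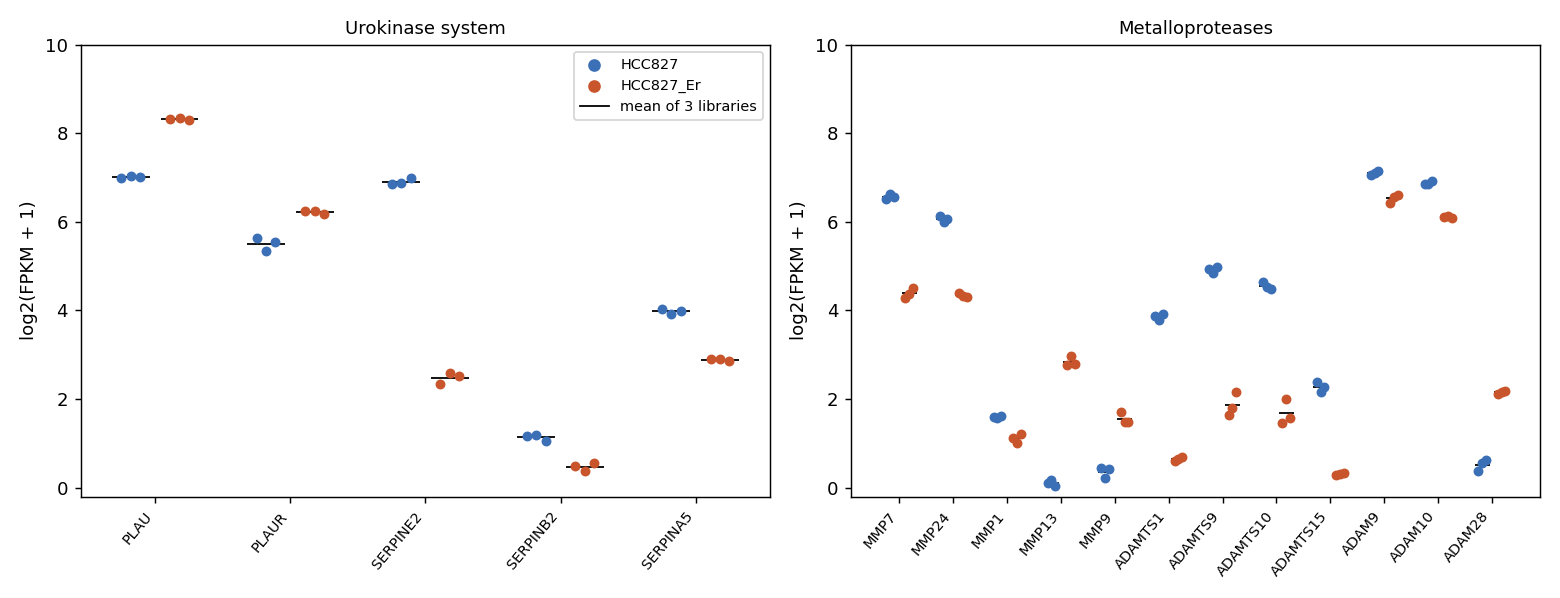
Level on the log2(FPKM + 1) scale (y axis) of the urokinase system (left) and of 12 metalloproteases (right) in each library, with a line at the mean of 3. PLAU lies higher in HCC827_Er while SERPINE2 falls from 115 to 126 FPKM in HCC827 to 4.07 to 5.05 FPKM in HCC827_Er, and in the right panel MMP13, MMP9 and ADAM28 lie higher in HCC827_Er and the other 9 lower.

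Cathepsins held the largest share of the summed FPKM of the 52 enzymes in both lines, and the order among the cathepsins changed. CTSD (chr11:1752752-1764573), the aspartic protease of lysosomes, stood at 613, 556 and 595 FPKM in HCC827 and 276, 239 and 241 FPKM in HCC827_Er, a log2 difference of -1.22 (SE 0.067, adjusted p = 3.30e-07). CTSL, a cysteine cathepsin, stood at 119.7, 128 and 113 FPKM in HCC827 and 48.7, 54.7 and 54.1 FPKM in HCC827_Er, with a log2 difference of -1.18. Both fell, but were not called after rescaling to equal sums (-0.97 and -0.93). CTSH, an aminopeptidase that processes surfactant proteins in the lung, stood at 23, 19.7 and 20.4 FPKM in HCC827 and 65.6, 62.5 and 57.2 FPKM in HCC827_Er and rose by 1.51 (SE 0.082, adjusted p = 3.16e-07). CTSV, a close relative of CTSL with 82.7% identity over 1280 aligned bases of transcript, rose from 13.9 ± 1.33 to 34.7 ± 3.85 FPKM (SD, n = 3), and after median-ratio rescaling its difference of 0.93 was not called. CTSB, an abundant cysteine cathepsin, stood at 113, 104 and 106 FPKM in HCC827 and 210.5, 197 and 192 FPKM in HCC827_Er. Its difference of 0.89 was not called as deposited, and it was called higher at 1.13 after rescaling to equal sums. CTSA, a serine carboxypeptidase that protects lysosomal glycosidases, stood at 244, 234 and 238 FPKM in HCC827 and 156, 144 and 139.9 FPKM in HCC827_Er, with a log2 difference of -0.70 that was not called. The ratio of CTSD to CTSB was 5.36 to 5.60 in HCC827 and 1.21 to 1.31 in HCC827_Er, which does not depend on scaling. CTSD shares part of its locus with a gene known only by the identifier ENSG00000250644, on the same strand.

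The 2 cystatins that the name rule takes were both called higher. CST6, or cystatin M/E, an inhibitor of CTSL, CTSV and legumain, stood at 24.2, 21.9 and 12.9 FPKM in HCC827 and 56.8, 54.5 and 44.1 FPKM in HCC827_Er. The groups were separate, and the log2 difference of 1.39 (SE 0.21, adjusted p = 1.78e-04) did not pass when tested against a difference of 1 (adjusted p = 1.47e-01). CST7, or cystatin F, an inhibitor of leukocyte cathepsins, stood at 0, 0.22 and 0.65 FPKM in HCC827 and 16.02, 16.1 and 18.8 FPKM in HCC827_Er, with a log2 difference of 3.83 (SE 0.18, adjusted p = 1.51e-07). CTSS, a cathepsin of antigen-presenting cells, stood at 28.4, 30.1 and 25.02 FPKM in HCC827 and 50.8, 50.05 and 51.02 FPKM in HCC827_Er, with a log2 difference of 0.84 that was not called as deposited and was called higher at 1.09 after rescaling to equal sums. Of 14 leukocyte markers, 8 were listed and 6 tested, of which CD14, LAPTM5, CORO1A, CSF1R and LCP1 were called higher. All of these except LCP1 stayed under 1 FPKM in every HCC827 library, so their direction was fixed by the minimum level. CD68, the most abundant of the 8 in HCC827, was lower in every HCC827_Er library (log2 difference -0.57, not called), and ITGAM, untested, was lower too. The summed level of the 8 was 185 to 191 FPKM in HCC827 and 271 to 277 FPKM in HCC827_Er, mostly CD68 and LCP1, and the markers' part in the rise of CST7 was not tested. Of 11 fibroblast markers 3 were listed, with sums of 2.46 to 3.35 FPKM and 9.33 to 11.5 FPKM. COL1A1 was called higher, LUM was not called and COL3A1 was listed at 0 in HCC827_Er. CST1 and CST3 were not analysed here.

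Calpains are calcium-dependent cysteine proteases of the cytosol. CAPN8 (chr1:223538007-223665734), a calpain of stomach mucous cells, stood at 0.40, 0.13 and 0.22 FPKM in HCC827 and 18.2, 17.5 and 16.8 FPKM in HCC827_Er, with a log2 difference of 3.89 (SE 0.12, adjusted p = 1.16e-08). CAPN6 (chrX:111245103-111270523), which lacks the catalytic cysteine, stood at 6.98, 6.67 and 7.11 FPKM in HCC827 and 0, 0.02 and 0 FPKM in HCC827_Er, and fell by 2.98 (SE 0.10, adjusted p = 1.92e-08). The pair thus changed in opposite directions, each near 0 in 1 line. CAPN3, the muscle calpain, stood at 1.00, 0.85 and 1.14 FPKM in HCC827 and 3.32, 2.19 and 1.74 FPKM in HCC827_Er, a log2 difference of 0.75 that missed the size limit. CAPNS1, the small subunit of the classical calpains, was abundant, at 379.9, 365 and 343 FPKM in HCC827 and 272, 218 and 239 FPKM in HCC827_Er, a log2 difference of -0.58 below the size limit. CAPN1 and CAPN2 were not analysed here.

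Serpins, which trap their target protease by a large change of shape, had members moving each way, and their summed level overlapped between the lines as deposited. It was 499.6, 500.3 and 521 FPKM in HCC827 and 505, 491 and 513 FPKM in HCC827_Er. SERPINA3, or antichymotrypsin, an acute-phase inhibitor of cathepsin G, stood at 33.8, 31.9 and 34.3 FPKM in HCC827 and 172, 177 and 171 FPKM in HCC827_Er. It rose 5.20-fold on the means, with a log2 difference of 2.34 (SE 0.054, adjusted p = 2.77e-09). SERPINA1, or alpha-1-antitrypsin, the inhibitor of neutrophil elastase, stood at 73.1, 70.9 and 66.03 FPKM in HCC827 and 165, 154 and 163 FPKM in HCC827_Er. The difference of 1.19 was called as deposited and became 0.85 after median-ratio rescaling, which was not called. SERPINH1, or HSP47, a collagen chaperone with no known protease target, rose from 4.52 ± 0.77 to 20.9 ± 2.40 FPKM (SD, n = 3). SERPINB1, an inhibitor of neutrophil proteases, stood at 61.04, 58.1 and 67.04 FPKM in HCC827 and 101, 93.02 and 111 FPKM in HCC827_Er, with a log2 difference of 0.70 that missed the size limit.

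SERPINF1, or PEDF, also without a known protease target, stood at 6.37, 4.32 and 5.37 FPKM in HCC827 and 1.95, 2.82 and 1.07 FPKM in HCC827_Er. It was called lower at -1.14, but not without HCC827_Er replicate 3 (-0.91), nor after rescaling to equal sums (-0.96). SERPINA6, the cortisol-binding globulin, fell from 8.76 ± 0.18 to 2.25 ± 0.35 FPKM (SD, n = 3). Without SERPINH1, SERPINF1, SERPINA6 and SERPINB5, the 4 listed serpins not known to inhibit a protease, the inhibitors had 10 higher and 6 lower calls among 20 tested.

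Both serpin clusters held genes called higher and genes called lower. In the clade B cluster of chromosome 18, SERPINB5 (chr18:63476761-63505085), or maspin, was listed at 0 in HCC827 and at 2.28, 3.13 and 2.92 FPKM in HCC827_Er, and was called higher. SERPINB4 (chr18:63637259-63644298), the squamous cell carcinoma antigen 2, stood at 89.7, 97.7 and 94.4 FPKM in HCC827 and 13.3, 13.3 and 14.8 FPKM in HCC827_Er, with a log2 difference of -2.68 (SE 0.07, adjusted p = 5.34e-09). SERPINB3 (chr18:63655197-63661963), squamous cell carcinoma antigen 1, stood at 27.4, 30.6 and 29.3 FPKM in HCC827 and 6.80, 7.54 and 8.07 FPKM in HCC827_Er, with a log2 difference of -1.83 (SE 0.09, adjusted p = 1.75e-07). Both fell, and SERPINB4 over SERPINB3 was 3.19 to 3.28 in HCC827 and 1.77 to 1.95 in HCC827_Er. SERPINB7 fell from 8.87 ± 1.72 to 2.07 ± 0.45 FPKM (SD, n = 3), SERPINB2 was not called and SERPINB13 was too low to be tested. In the clade A cluster of chromosome 14, SERPINA1, SERPINA3 and SERPINA4 were called higher and SERPINA5 and SERPINA6 lower. SERPINA4, or kallistatin, stood at 0.39, 0.13 and 0.36 FPKM in HCC827 and 2.47, 3.25 and 3.73 FPKM in HCC827_Er, and overlaps SERPINA5 on the same strand, so the authors' counting may have split reads between them.

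SERPINB3 and SERPINB4 are near-identical copies that lie 10.9 kb apart. Their longest transcripts are 95.7% identical over 1749 aligned bases, so the division of reads between them is uncertain. Their RefSeq windows of 250 bases before the start are printed because both genes fell and their levels differ. The windows are 98.8% identical position by position, with 3 substitutions in capitals, G126A, G201A and C228T. Positions count from 1 at the 5′ end, with the SERPINB3 base first.
SERPINB3 (chr18:63661894-63662143, minus strand): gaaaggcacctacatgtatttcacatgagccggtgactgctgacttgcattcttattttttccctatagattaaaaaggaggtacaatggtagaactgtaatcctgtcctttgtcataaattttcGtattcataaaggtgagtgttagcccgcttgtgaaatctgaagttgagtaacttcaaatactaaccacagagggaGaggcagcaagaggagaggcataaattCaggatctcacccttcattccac
SERPINB4 (chr18:63644257-63644506, minus strand): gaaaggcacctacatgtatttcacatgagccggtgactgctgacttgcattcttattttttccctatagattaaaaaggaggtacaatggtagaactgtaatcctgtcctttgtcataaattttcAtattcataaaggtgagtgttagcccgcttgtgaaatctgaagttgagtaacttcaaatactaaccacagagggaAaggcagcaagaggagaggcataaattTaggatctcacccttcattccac

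**Figure D5:**
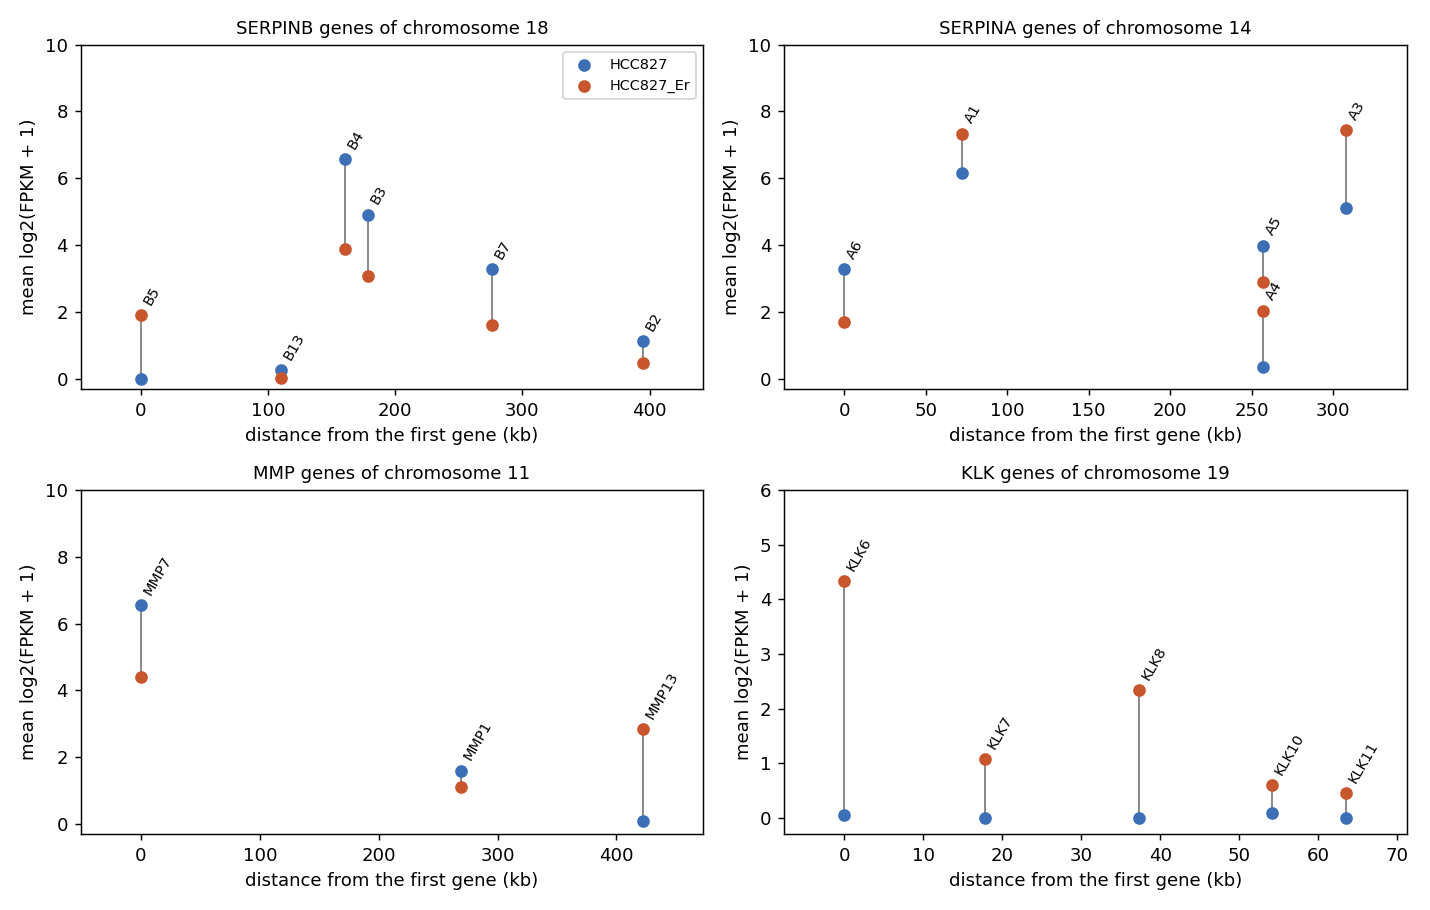
Mean of log2(FPKM + 1) over 3 libraries (y axis) against distance from the first gene in kb (x axis) for 4 gene clusters, with a line joining the lines' values for each gene. SERPINB5 lies higher in HCC827_Er and the other 5 clade B genes lower, MMP7 and MMP13 go in opposite directions, and all 5 KLK genes lie higher in HCC827_Er.

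The 3 ADAMTS-like proteins and the genes too low to be tested complete the set. ADAMTSL4, a fibrillin-binding matrix protein, stood at 16.9, 16.9 and 17.5 FPKM in HCC827 and 2.80, 3.27 and 3.58 FPKM in HCC827_Er, with a log2 difference of -2.10. ADAMTSL3 fell from 6.42 ± 0.48 to 1.04 ± 0.13 FPKM (SD, n = 3). ADAMTSL5 stood at 2.84, 2.77 and 2.46 FPKM in HCC827 and 5.52, 4.23 and 4.21 FPKM in HCC827_Er, a log2 difference of 0.61 below the size limit. Among the 6 genes in neither class 3 were thus called lower, which included MMP24OS, and 0 higher. At an adjusted p under 0.05 of any size all 6 differed, with PLAUR and ADAMTSL5 above. The 21 genes not tested, 16 enzymes and 5 inhibitors, did not exceed 2.53 FPKM in any library, the value of WFDC10B in 1 HCC827_Er library. Of these, 14 were higher in every HCC827_Er library, 6 lower and 1, MMP25, overlapped. Over all 87 genes, 85 had no overlap between the lines, a share near the 96.1% of all listed genes, with ADAM8 and MMP25 as the exceptions.

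Genes of the same systems that the name rule does not take were drawn from a list of 126, of which 47 were listed and 41 tested. Of these, 15 were called higher and 11 lower, or 36.6% and 26.8%, with a median of 0.71. After median-ratio rescaling the counts were 11 and 18, beside 17.1% and 31.7% of all genes, and after rescaling to equal sums 18 and 8, beside 34.6% and 15%. SLPI, the secretory leukocyte protease inhibitor of airway epithelium, stood at 14.3, 10.9 and 14.8 FPKM in HCC827 and 130, 144 and 132 FPKM in HCC827_Er, with a log2 difference of 3.26 (SE 0.11, adjusted p = 1.92e-08). PI3, or elafin, which inhibits neutrophil elastase as SLPI does, stood at 28.7, 38.7 and 34.8 FPKM in HCC827 and 11.02, 9.14 and 8.94 FPKM in HCC827_Er and fell by 1.71 (SE 0.12, adjusted p = 1.97e-06). TFPI2, a Kunitz inhibitor of plasmin and of matrix-bound proteases, stood at 268, 277 and 271 FPKM in HCC827 and 29.2, 29.5 and 34.4 FPKM in HCC827_Er and fell by 3.09 (SE 0.07, adjusted p = 2.55e-09). These 3 secreted inhibitors of serine proteases thus did not move together.

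Among activators and substrates of the serine proteases, PLAT, the tissue plasminogen activator, stood at 1.10, 0.81 and 1.63 FPKM in HCC827 and 7.04, 7.03 and 7.18 FPKM in HCC827_Er and rose by 1.91. MST1R, the receptor of a growth factor that matriptase-type proteases activate, rose from 3.44 ± 0.37 to 28.4 ± 4.41 FPKM (SD, n = 3). EPCAM, an epithelial adhesion molecule that matriptase can cleave, rose from 30.1 ± 0.43 to 297 ± 26.4 FPKM (SD, n = 3). NAPSA, napsin A, an aspartic protease of type II pneumocytes that processes surfactant protein B, stood at 27.9, 28.7 and 27.3 FPKM in HCC827 and 267, 253 and 252 FPKM in HCC827_Er, with a log2 difference of 3.15 (SE 0.053, adjusted p = 7.93e-10). In HCC827_Er its range overlapped that of CTSD, whereas in HCC827 every CTSD value was above every NAPSA value.

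Peptidases of the cell surface and the secretory path went each way. DPP4, a dipeptidyl peptidase that trims the N-terminus of incretins and chemokines, stood at 21.2, 21.9 and 21.9 FPKM in HCC827 and 66.3, 74.8 and 77.5 FPKM in HCC827_Er and rose by 1.70. ANPEP, or aminopeptidase N, fell from 6.88 ± 0.27 to 0.91 ± 0.31 FPKM (SD, n = 3). PCSK5, a proprotein convertase, fell from 15.5 ± 0.88 to 0.38 ± 0.34 FPKM (SD, n = 3), and HTRA1, a secreted serine protease of the matrix, from 4.51 ± 0.07 to 0.51 ± 0.13 FPKM (SD, n = 3).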

How the data were processed

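Libraries from the RNA of 6 samples were made with an Illumina kit, as the labels' protocols state. What the authors deposited is FPKM per gene and library, without counts. The submitters' processing notes name fastp, HISAT2 and StringTie, and the builds GRCh38.p14 and hg19, with no versions or roles. How genes entered the table is not given in the sources used here. A library's FPKM falls for all genes when a few very abundant ones rise, and it carries no depth, so no counting error is given.

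Symbols were matched by identifier for 6636 of 6641 genes. Gene type and position came from GENCODE 29 on GRCh38, which listed 6353. Of 94 names that matched the rule, 7 were not protein-coding. MMP24OS, which the rule takes by name, encodes no metalloprotease and was put in neither class. The members and lists were chosen with earlier results of these data known.

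The 5276 genes with at least 1 FPKM in at least 3 libraries were fitted with limma 3.58.1 in R 4.3.3 on log2(FPKM + 1), with the line as the only term and a mean-variance trend, after a test on simulated data. Adjusted p-values are Benjamini-Hochberg values over all 5276. Fold changes on this scale understate low genes, and a fold on the means is a ratio of mean FPKM. No list was tested, and with 3 libraries in each line the smallest two-sided p of an exact permutation test is 0.1. Named are the called enzymes and inhibitors with the largest differences, up to 10 in each direction and class with a mean of at least 2 FPKM in the higher line, up to 6 in each direction of the related list, and a fixed set of system genes. Some genes that this rule takes are not reported here. Other genes are given to complete a family and were chosen with their values in view. Promoter windows and their 250 bases before the start are RefSeq's. Alternatives varied the pseudocount, minimum level, scaling, trend, replicate block, test and libraries.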

Additional observations from a re-analysis of the deposited data

How the results depend on the processing

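Of 78 gene results, 45 kept their direction and call under every alternative that tested them, and 35 of the 66 tested proteases and inhibitors did. With a minimum of 5 FPKM only 61 of the 78 were tested. ADAM8 reversed to -0.0213 after median-ratio rescaling. A pseudocount of 5 instead of 1 lowered the calls over all genes to 579 higher and 506 lower, the lower inhibitors to 4, the related genes to 7 higher and 6 lower, and the higher leukocyte markers to 2. With a minimum of 5 FPKM fewer genes were tested, and 867 of 3584 genes and 2 of 3 leukocyte markers were higher. A test against a log2 difference of 1 gave 827 higher and 664 lower genes. Median-ratio rescaling gave 1671 lower genes, 18 lower related genes and 1 lower fibroblast marker, LUM. LUM was also called lower with a pseudocount of 0.1. The cause of these moves was not tested. Leaving out 1 library at a time moved the lower fibroblast markers between 0 and 1, with LUM called without HCC827 replicate 3 or without HCC827_Er replicate 1. It changed the calls of PRSS12 and SERPINF1 among the gene results. With MMP24OS among the enzymes, one of 3 alternatives chosen after seeing the data, 10 of 37 were lower, and without CAPN6 8 of 35. The fit with the replicate number as a block changed none of the 78 gene calls. Same-numbered libraries correlated in their deviations from the line means at 0.106, -0.0219 and 0.0489. No clear pairing shows in these values, which cannot exclude that same-numbered samples were handled together. Depth is unknown, so differences among genes under 1 FPKM have no counting error.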

Other observations

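Several names of the protease and inhibitor series belong to genes that GENCODE 29 does not class as protein-coding, and 7 of these are listed. WFDC21P, a unitary pseudogene of a whey-acidic-protein-domain gene, stood at 177, 165 and 119.8 FPKM in HCC827 and 7.99, 32.5 and 38.2 FPKM in HCC827_Er. It was lower in every HCC827_Er library, while WFDC2 and WFDC3 rose, and its HCC827_Er libraries differed widely among themselves. SERPINB9P1, a non-coding gene near SERPINB1 on chromosome 6, stood at 13.4, 12.6 and 12.2 FPKM in HCC827 and 7.42, 6.16 and 5.55 FPKM in HCC827_Er. ADAMTS9-AS1, antisense to ADAMTS9, stood at 2.15, 1.89 and 3.80 FPKM in HCC827 and 0.01, 0 and 0 FPKM in HCC827_Er. It was thus lower in the same line as ADAMTS9 itself.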
